A study of Saccharomyces cerevisiae with 2 samples.

Results

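In yeast cells without the histone variant H2A.Z, 8 genes had a far higher ratio of galactose-induced to constitutive histone H3 in the reading frame than in the promoter: MIN4 (YML007C-A), SPP2 (YOR148C), ICS3 (YJL077C), AHT1 (YHR093W), ECM13 (YBL043W), ARG80 (YMR042W), MIY2 (YPL191C) and GAT4 (YIR013C). They are 8 of the 4400 genes that had a value in both regions, and 8 of 5916 reading frames used. They were chosen by their measured frame minus promoter ratio on these same arrays, so their own values are given as a description, with no test. Every probe in each frame and in the 500 bp on either side of it was read.

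The cells were Saccharomyces cerevisiae of strain MDY513 with HTZ1, the gene for H2A.Z, deleted. The mating pheromone alpha factor, at 4 µg/mL over 4 hours, held them in G1 before 180 min in 2% galactose. They made H3-Myc constitutively and H3-Flag under galactose induction, and both samples form 1 group of that strain, arrest and time, without an HTZ1 control among them. Each array compared the Flag precipitate (Cy3) with the Myc precipitate (Cy5), with the dyes the same way round on both arrays, and nothing in the labels says whether the 2 replicates came from separate cultures.

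Nucleosomes are not permanent: histones are evicted and replaced during transcription, remodelling and replication, and the H3 that enters outside S phase in G1-arrested cells is placed independently of replication. In budding yeast the fastest replacement is usually found at promoters, while the bodies of most genes keep older H3. A locus with high Flag over Myc therefore holds a larger share of recently made H3 than a locus with low Flag over Myc.

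All values are log2 ratios of Flag over Myc, centred so that 0 is the median probe of the array, which need not carry the 2 histones equally. Of 41282 nuclear probes of 60 bp, spaced 267 bp apart in the median, 34899 were used, and the arrays correlated at r = 0.967 across these probes, which are not independent replicates. The single HTZ1 frame probe was dim (not well above background) in every channel of each array. A frame value is the mean over used probes whose midpoint lies in the frame. A promoter value is the mean over used probes whose midpoint lies within 500 bp upstream of the start codon and in no frame. The files' own probe classes differ from this split at the reverse-strand genes MIN4, SPP2, ICS3, MIY2 and GAT4. There they class every used frame probe as a promoter probe, and the reason was not tested. Errors are SDs over the 2 arrays (n = 2), and p-values, given only for other genes, reflect only how far these arrays differ, which could be technical.

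Across the genome the frame ratio was usually the lower one. The median over 5590 genes was -0.06 in the frame, and over 4548 genes it was 0.99 in the promoter. The median difference of frame minus promoter was -0.91 over 4400 genes. With limma's moderated test and Benjamini-Hochberg adjustment, frame was above promoter in 10.4% of the genes and below it in 69.5%. The frame was more than 2 log2 units above the promoter on both arrays in 18 genes (0.409%), and all 8 genes lie among these 18 by the way they were chosen.

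The 8 genes were high in the frame, with a promoter median near that of the genome. Their median frame ratio was 3.26 and their median promoter ratio 0.92, beside the genome medians of -0.06 and 0.99. All 8 frames exceeded 2 log2 units on both arrays, where 7.17% of all genes did, a share from which nothing is read since the choice used this contrast. The promoter ratio was above 0 on both arrays in 6 of the 8 genes, and 82.4% of all promoters were. MIN4 and SPP2 were the exceptions, with promoters below the array median on both arrays.

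**Figure D1:**
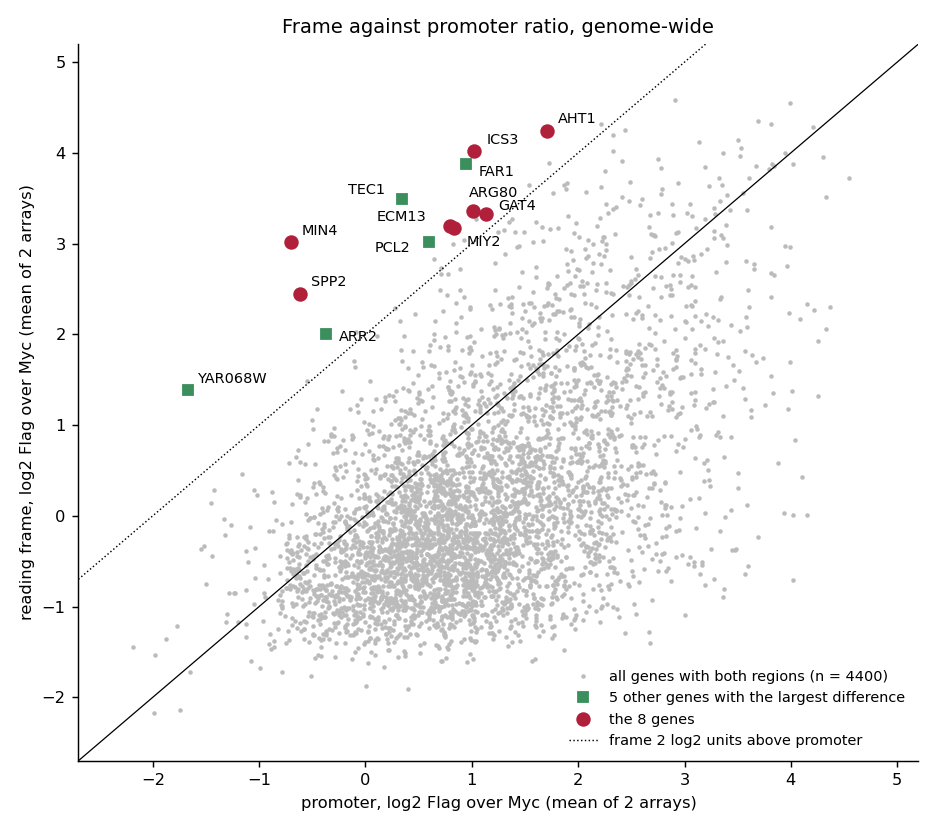
Frame ratio (vertical axis) against promoter ratio (horizontal axis), both log2 Flag over Myc as the mean of 2 arrays, for the 4400 genes with both regions. The 8 genes (red circles) lie above the dotted line that marks a frame 2 log2 units above the promoter, AHT1 has the highest frame ratio of the 8 at 4.24, and MIN4 and SPP2 lie left of 0. Green squares are the 5 other genes with the largest difference.

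Single probes show the values behind that choice, and nothing further is read from their counts. Of the 17 used frame probes, 16 were above 2 log2 units on both arrays, where 8.97% of all used probes were. None of the 12 used upstream probes reached that level, and 6 of the 10 used downstream probes did. Frame probes ranged from 2.01 to 4.24 as means of the arrays, and upstream probes from -0.70 to 1.87. The SD between the arrays at a used probe was 0.17 in the median and 0.50 at most. Of 54 probes in the 8 windows, 13 were left out because at least 1 of their signals was dim, and 2 more for an outlier flag.

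The 8 genes are unlike in function, and the regulators come first. ARG80 encodes a MADS-box DNA-binding protein that works with Arg81, Arg82 and Mcm1 to repress arginine synthesis genes and activate arginine breakdown genes. Its 534 bp forward-strand frame lies on chromosome 13 from 352602 to 353135, in the files' own coordinates (genome build not given in the sources used here). The frame ratio was 3.16 on replicate 1 and 3.55 on replicate 2, and the promoter ratio was 1.06 and 0.96. Frame minus promoter was 2.10 and 2.59 (mean 2.35 ± 0.35), a fold of 5.08 on the linear scale. A probe 152 bp before the start codon read 1.06 and 0.96. The one centred 3 bp after it, which spans the start codon, read 2.47 and 2.84, and the one at 225 bp 3.56 and 4.04. With only probes wholly inside the frame, the frame ratio was 3.70. The highest used probe in the window, at 4.05 and 3.69, was 968 bp from the start codon and past the stop codon. That probe also lies within 500 bp upstream of the start codon of MCM1, the next gene, and enters its promoter value (3.10 ± 0.01).

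GAT4 encodes a protein with a GATA-type zinc finger, the fold of the yeast nitrogen regulators. Its 366 bp reverse-strand frame lies on chromosome 9 from 380016 to 380381. The frame ratio was 3.14 and 3.52, the promoter ratio 1.05 and 1.21, and the difference 2.09 and 2.31 (mean 2.20 ± 0.15, 4.59-fold). The promoter was uneven. Its probe 143 bp before the start codon read 1.73 and 2.01, and its probe 407 bp before it read 0.38 and 0.41. The farther probe also lies 295 bp upstream of VLD1. With the nearer probe alone, as in a 250 bp window, the difference was 1.46, and after loess normalisation within arrays it was 1.34.

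SPP2 and MIY2 have known biochemical roles. SPP2 encodes an essential splicing factor that activates the spliceosomal ATPase Prp2. Its 558 bp reverse-strand frame lies on chromosome 15 from 608640 to 609197, where the frame ratio was 2.34 and 2.56 and the promoter ratio -0.87 and -0.35. The difference of 3.21 and 2.92 (mean 3.06 ± 0.21, 8.36-fold) thus joined the lowest frame ratio of the 8 genes to a promoter below the array median. Within the frame the probe at 143 bp read 1.97 and 2.05 and the probe at 446 bp read 2.70 and 3.07, so the ratio was higher toward the 3′ end on both arrays. A dim probe 55 bp before the start codon, left out of the promoter value, read 0.98 and 1.17. With dim probes kept, the promoter ratio turned to 0.14 and the difference became 2.22.

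MIY2 encodes a deubiquitinating enzyme of the MINDY family. Its frame, at 1083 bp the longest of the 8, is on the reverse strand of chromosome 16 from 183596 to 184678. The frame ratio was 3.15 and 3.19 and the promoter ratio 0.66 and 1.01, which gave a difference of 2.49 and 2.18 (mean 2.33 ± 0.22, 5.04-fold). The frame was even. Its used probes at 410, 737 and 843 bp had array means within the narrow range of 2.97 to 3.30, and a dim probe at 239 bp, left out, read 2.97 on both arrays.

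The remaining genes have little or no assigned function. MIN4 is a frame of 111 bp on the reverse strand of chromosome 13 from 253162 to 253272, and 1 probe covered it. That probe read 3.37 and 2.66, the least even pair among the used probes of the windows, and the only used promoter probe, 415 bp before the start codon, read -0.60 and -0.81. The difference was 3.96 and 3.47 (mean 3.72 ± 0.35, 13.2-fold), the largest of all 4400 genes. The value rests on 1 probe in each region, and the probes around them were dim or carried an outlier flag. A dim probe 65 bp before the start codon read 1.80 and 1.77, and with dim probes kept the promoter ratio turned to 0.22 and the difference became 2.70. The frame probe also lies 234 bp upstream of the start codon of ERG6, which encodes the sterol C-24 methyltransferase of ergosterol synthesis, so it falls in the promoter window of ERG6 as well.

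ICS3, named for the copper sensitivity of its mutant, is a 396 bp frame on the reverse strand of chromosome 10 from 294582 to 294977. Its frame ratio was 3.99 and 4.06, its promoter ratio 1.11 and 0.94, and the difference 2.88 and 3.12 (mean 3.00 ± 0.17, 7.99-fold). Both frame probes were high on both arrays, at 4.04 and 3.82 for the probe at 113 bp and 3.93 and 4.30 for the probe at 330 bp. These probes also lie upstream of other start codons. The first is 297 bp before the divergent NET1, which encodes a nucleolar anchor of the phosphatase Cdc14, and the second is 68 bp before YJL077W-A. The only used promoter probe, 180 bp before the ICS3 start codon, is centred 4 bp before that of NET1. Part of its 60 bp therefore lies in the NET1 frame. The next probe upstream, 369 bp before the ICS3 start codon and inside NET1, read 0.19 and 0.08.

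AHT1 is a 549 bp forward-strand frame on chromosome 8 from 289144 to 289692, between the hexose transporter genes HXT4 and HXT1. It is regarded as a dubious frame, whose name comes from an effect on hexose transport of DNA that includes regulatory sequence of HXT4. Its frame ratio was 4.37 and 4.12, its promoter ratio 1.80 and 1.62, and the difference 2.57 and 2.50 (mean 2.54 ± 0.04, 5.80-fold). The frame value was the highest of the 8 genes and came from 1 probe, at 463 bp. A dim frame probe at 238 bp read 0.49 and 1.51, well below it. With dim probes kept, the difference fell to 0.91, the lowest value of any of the 8 genes under any alternative tried, and rank 257 in the genome.

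ECM13, named from a screen for cell wall defects, is a 774 bp forward-strand frame on chromosome 2 from 136691 to 137464. Its frame ratio was 3.26 and 3.12, its promoter ratio 0.53 and 1.07, and the difference 2.73 and 2.05 (mean 2.39 ± 0.48, 5.25-fold). The frame probes at 174, 321 and 509 bp all lay between 2.98 and 3.38 on each array. The promoter probe, 167 bp before the start codon, was the less even value and gave most of the spread of the difference. After loess normalisation within arrays the difference was 1.60.

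**Figure D2:**
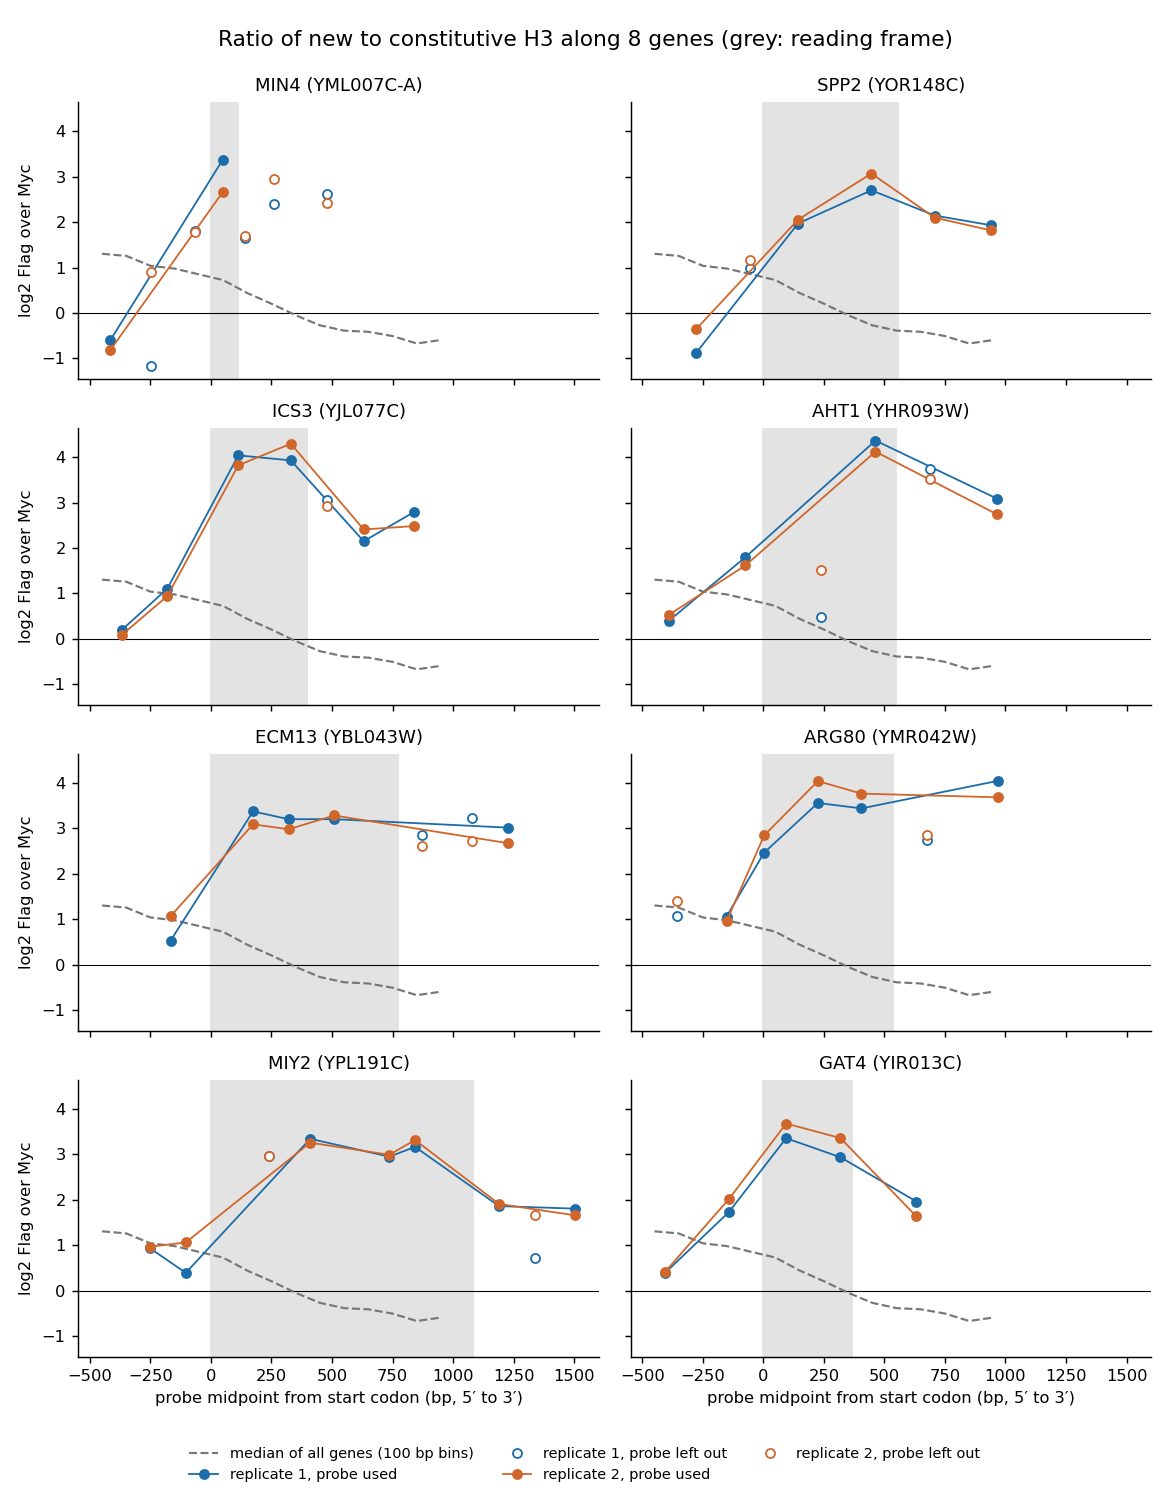
Log2 Flag over Myc at every probe of the 8 windows against the distance of the probe's midpoint from the start codon in bp, with 1 panel per gene, blue for replicate 1, orange for replicate 2, open circles for probes left out, grey shading for the frame and a dashed line for the median of all genes in 100 bp bins. In each gene the used upstream probes lie below the used frame probes. Past the stop codon of ARG80 the ratio is still 3.87, at a probe that also lies in the promoter window of MCM1.

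The choice of the genes fixed a step up from promoter to frame at each of them, so nothing is read from its size. Its position could be placed only as finely as the probes allow. Between the nearest used upstream probe and the first used frame probe the ratio rose by 1.65 ± 0.34 over 155 bp at ARG80 and by 1.65 ± 0.03 over 237 bp at GAT4. It rose by 2.91 ± 0.04 over 293 bp at ICS3 and by 2.44 ± 0.58 over 341 bp at ECM13. These 4 genes had no probe left out within the step. At the other genes a dim probe lay within the step, 2 of them at MIN4, and the steps spanned 420 bp at SPP2, 463 bp at MIN4, 514 bp at MIY2 and 537 bp at AHT1. The genome profile ran the other way, from a median of 0.85 in the last 100 bp before the start codon to 0.44 between 100 and 200 bp after it and -0.67 between 800 and 900 bp.

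Downstream of the frame 7 of the 8 genes had a used probe, with a median ratio of 2.46 beside 0.45 for all genes. The downstream ratio was above the promoter ratio on both arrays in all 7 (28% of the 4042 genes with all 3 regions), and the frame was above the downstream ratio on both arrays in 6 (33.2% of all genes). The choice of the genes used their frame and promoter values, so it partly fixes both counts, and nothing is read from them. The mean excess was 1.56 ± 0.07 at ICS3, 1.53 ± 0.50 at GAT4, 1.36 ± 0.06 at MIY2 and 1.33 ± 0.07 at AHT1. It was smaller, at 0.45 ± 0.22 and 0.34 ± 0.14, at SPP2 and ECM13. The only used downstream probe of GAT4 lies in the frame of SQT1, so its excess compares 2 frames. At SPP2 the files class the used downstream probes as inside a frame. ARG80 was the exception, with -0.51 ± 0.53, an SD as large as the difference.

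**Figure D3:**
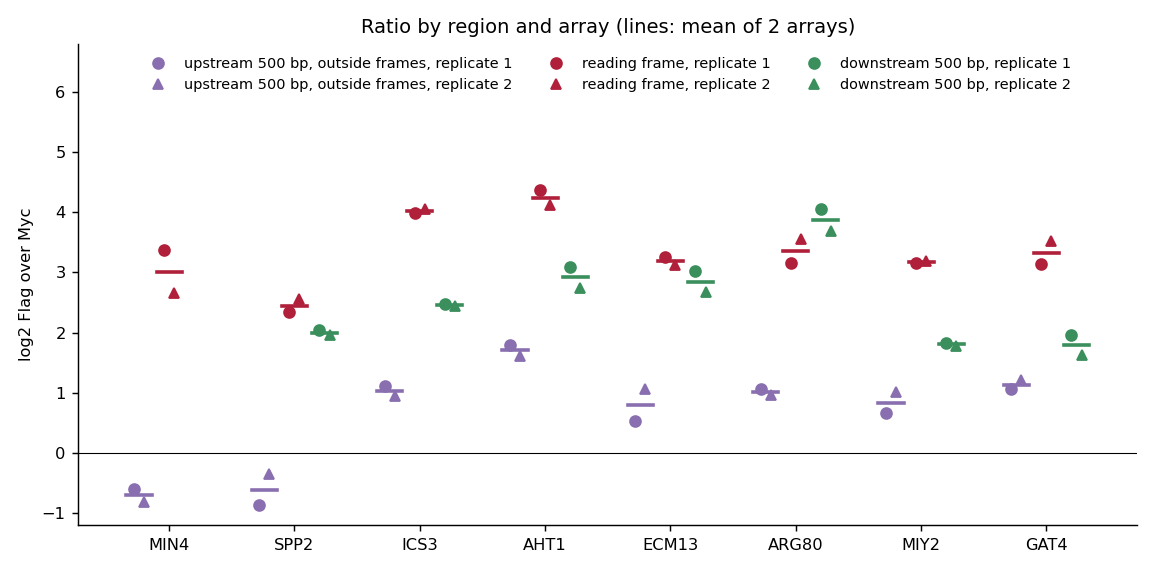
Log2 Flag over Myc in the promoter, the frame and the 500 bp downstream of the frame for each of the 8 genes, with a circle for replicate 1, a triangle for replicate 2 and a line at their mean. The frame points lie above the promoter points in every gene, the downstream points lie above the promoter points in the 7 genes that have them, and MIN4 has no used downstream probe.

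Around each frame the run of neighbouring used probes above 2 log2 units on both arrays was measured. The run spanned 1345 bp at ECM13, 1294 bp at ARG80, 991 bp at AHT1 and 894 bp at ICS3, where it reached into YJL077W-B. It passed the stop codon by 686 bp at ECM13, 704 bp at ARG80, 846 bp at AHT1 and 552 bp at ICS3. At ARG80 it took in probes of the MCM1 promoter window. At MIN4 it held only 2 used probes, on either side of the probes left out, and reached into ERG6. At MIY2 and GAT4 it ended within the frame, after 3 and 2 probes. At SPP2 it held 1 frame probe and 1 downstream probe.

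Upstream of the 8 frames the neighbouring frames were mostly below the array median. Of 7 upstream neighbours with a frame value, limma placed 5 below the array median and 1 above it, and 1 did not pass. Over all genes 43% of frames were lower and 39% higher. NAB3, which encodes an RNA-binding protein of transcription termination, had -1.22 and -1.01 upstream of MIY2 (mean -1.12 ± 0.15, adjusted p = 2.5e-05). ARA2, a dehydrogenase gene, had -0.79 and -0.71 upstream of ARG80 (-0.75 ± 0.06, adjusted p = 0.000137), and HXT4 had -0.49 and -0.59 (-0.54 ± 0.07, adjusted p = 0.000861). YAP1, which encodes the oxidative stress activator, had -0.10 and -0.02 upstream of MIN4 and did not pass (adjusted p = 0.535). NET1 (-0.34 ± 0.17) and SMP3 (-0.34 ± 0.04) were also lower, but the call of SMP3 ended with normexp background correction (adjusted p = 0.0524) and with loess (adjusted p = 0.294). The higher one was VLD1 (1.18 ± 0.06), whose value fell to 0.091 (adjusted p = 0.400) when its frame probes upstream of another start codon were left out.

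Of 7 downstream neighbours with a frame value, 5 were higher and 2 lower, beside 39% and 43% of all genes, and their median was 1.27. The difference between the upstream and downstream sides was not tested, and 2 of the 5 higher calls ended under alternatives. PRM3, a pheromone-regulated gene of nuclear fusion, had 3.08 and 3.26 beyond MIY2 (3.17 ± 0.13, adjusted p = 1.73e-07). The convergent YJL077W-B had 2.88 and 2.96 beyond ICS3 (2.92 ± 0.05, adjusted p = 1.94e-07), and ERG6 had 1.57 and 1.42 beyond MIN4 (1.49 ± 0.10, adjusted p = 5.2e-06). Beyond ARG80 lies MCM1, the gene of its own partner protein, with 1.19 and 1.36 (1.27 ± 0.12, adjusted p = 1.18e-05), a call that ended with loess (0.18, adjusted p = 0.186). FUI1, the uridine permease gene beyond ECM13, was higher at 0.42 ± 0.14 (adjusted p = 0.00412), which ended with normexp (adjusted p = 0.102) and with loess (adjusted p = 0.515). HXT1 beyond AHT1 (-0.84 ± 0.13) and SQT1 beyond GAT4 (-0.30 ± 0.13) were lower. Whether the levels of neighbours contributed to those of the 8 genes was not tested.

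Several probes served more than 1 gene. In 5 of the 8 genes a used promoter probe also lies within 500 bp upstream of another start codon. It is shared with YAP1 at MIN4, NET1 at ICS3, HXT4 at AHT1, ARA2 at ARG80 and VLD1 at GAT4. In MIN4 and ICS3 the frame probes themselves, 3 in all, lie within 500 bp upstream of another start codon, and in the other 6 genes none does. Used downstream probes also lay within 500 bp upstream of another start codon, that of MCM1 at ARG80, PRM3 at MIY2 and YJL077W-A at ICS3. At GAT4 the used downstream probe lay in the SQT1 frame. The upstream neighbour was divergent in 5 of the 8 genes (62.5%) and in 52.8% of all genes with both regions, and the gap to it had a median of 602 bp beside 491 bp.

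The 8 frames were short. Their median length was 541.5 bp, beside 1261.5 bp for all genes with both regions, and 7 of the 8 fell among the shortest of 4 equal length classes, from 78 to 786 bp. In that class the median difference was -0.30 and the frame ratio was above the promoter ratio in 36.9% of the genes. In the longest class these values were -1.43 and 7.01%. Of the 8 genes, 6 (75%) rested on 1 used promoter probe, as did 56.5% of all genes, and 2 genes rested on 1 used frame probe. The part of length and probe number in the choice of the 8 genes was not tested.

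**Figure D4:**
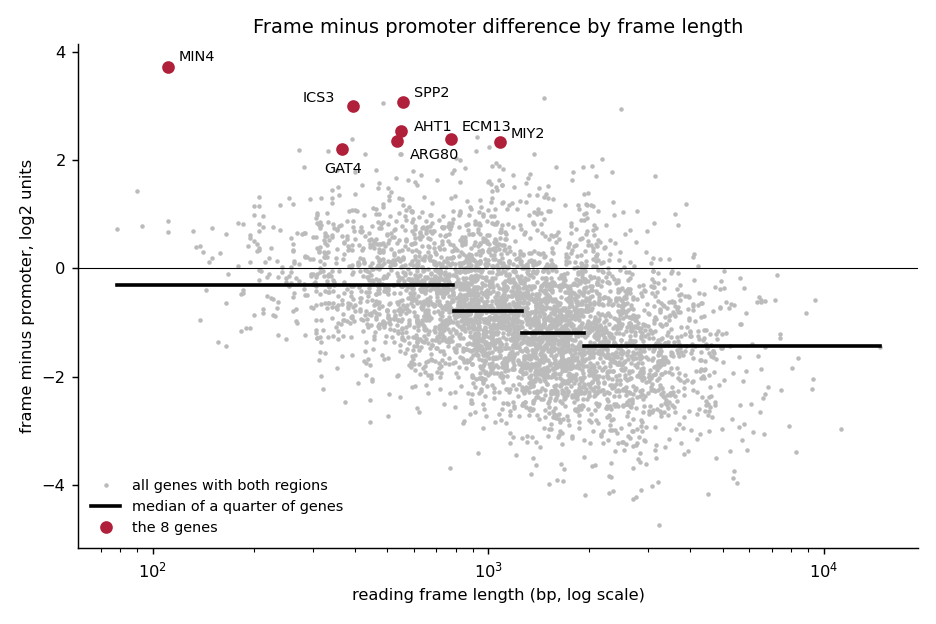
Frame minus promoter ratio (log2, mean of 2 arrays) against the length of the reading frame (bp, log axis) for the 4400 genes, with the 8 genes in red and black bars at the median of each of 4 length classes. The difference is lower in longer frames, from a median of -0.30 in the shortest class to -1.43 in the longest, and all 8 genes lie at or under 1083 bp.

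Genes most like the 8 on this difference were found by rank. Ranked by the mean difference, the 8 genes took places 1 (MIN4), 3 (SPP2), 5 (ICS3), 7 (AHT1), 9 (ECM13), 11 (ARG80), 12 (MIY2) and 14 (GAT4). Between them came TEC1 (3.14 ± 0.16), YAR068W (3.06 ± 0.17), FAR1 (2.94 ± 0.47), PCL2 (2.43 ± 0.14), ARR2 (2.38 ± 0.32) and KAR4 (2.23 ± 0.42). TEC1 encodes a filamentation transcription factor, FAR1 the G1 arrest factor of the pheromone response, PCL2 a G1 cyclin and KAR4 a transcription factor of mating. Rank alone did not set the choice, since these other genes ranked above GAT4. GAT4, the last of the 8 genes at 2.20, was followed by MHF1 at 2.19, which is closer than the SD of either gene. TEC1 and FAR1 had frames of 1461 and 2493 bp, longer than any of the 8, and YAR068W reached its place through a promoter of -1.67 with a frame ratio of only 1.39.

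Among partner genes of the same pathways frame below promoter was the usual layout, as in the genome. Of 26 listed genes, 21 had both regions, and limma placed the frame above the promoter in 3 of them and below it in 15, with a median difference of -0.82. These shares stand beside the 10.4% higher and 69.5% lower over all genes. In the frame itself 9 of the 26 were higher, 7 lower and 10 did not pass, beside 39% higher and 43% lower of all genes. In the promoter 18 of 21 were higher and 3 lower, beside 75.8% higher and 6.99% lower of all genes. Under alternatives the higher promoter calls of PRP2, PRP16, HXT1 and DAL80 ended, and so did the lower ones of GAT3 and ECM23. The partner counts include YAP1 and HXT4, whose promoter probes also entered the choice of MIN4 and AHT1. YAP1 counts among the 3 with frame above promoter and HXT4 among the 15 below. That choice partly fixed the promoter and difference calls of YAP1 and HXT4, so nothing is read from those calls.

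Of the 9 arginine genes and regulators listed for ARG80, 5 were higher in the frame, 4 did not pass and none was lower, beside 39% higher and 43% lower of all genes. The higher call of MCM1 ended with loess (adjusted p = 0.186). ARG81 gained a lower call without frame probes upstream of another gene (-0.35, adjusted p = 0.00685). ARG82 gained one with dim probes kept (-0.26, adjusted p = 0.0441). The arginase gene CAR1 had 2.81 and 2.92 (2.87 ± 0.08, adjusted p = 2.15e-07) and the ornithine transaminase gene CAR2 had 2.40 and 2.62 (2.51 ± 0.15, adjusted p = 4.95e-07). Both breakdown genes also had frame above promoter, by 0.62 ± 0.22 (adjusted p = 0.00504) and 0.64 ± 0.15 (adjusted p = 0.00398), far less than the 2.35 of ARG80. With loess both calls ended, at -0.093 for CAR1 and 0.045 for CAR2, and with a 1000 bp promoter window the call of CAR1 ended at 0.15. The synthesis genes ARG1 (1.44 ± 0.09) and ARG3 (0.74 ± 0.14) were higher in the frame, while ARG8 and ARG5,6 did not pass. MCM1 had the opposite layout to its neighbour ARG80, with a promoter of 3.10 ± 0.01 and a difference of -1.83 ± 0.13 (adjusted p = 1.58e-07).

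For SPP2 the spliceosomal helicase genes PRP2, PRP16, PRP22 and PRP43 all had frame below promoter, from -0.58 ± 0.44 to -1.41 ± 0.49. The call of PRP2 ended in a 250 bp window (-0.35) and that of PRP43 with loess (-0.35). In the frame PRP16 (-0.88 ± 0.23) and PRP22 (-0.85 ± 0.04) were lower and the other 2 did not pass. For MIY2 the related gene YGL082W had a frame ratio of -0.04 and 0.15, which did not pass (adjusted p = 0.591), and a difference of -0.74 ± 0.37 (adjusted p = 0.00197).

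Among the 8 other GATA-type genes listed for GAT4, 3 were higher in the frame, 3 lower and 2 did not pass. Of the lower calls, that of GAT3 ended with loess (adjusted p = 0.226) and that of ECM23 with normexp (adjusted p = 0.0686) and loess (adjusted p = 0.0835). GZF3 gained a lower call with normexp (adjusted p = 0.0483) and with dim probes kept (adjusted p = 0.0181). SRD1 had 3.63 and 3.99 (3.81 ± 0.25, adjusted p = 1.6e-07), and the nitrogen activator gene GAT1 (1.75 ± 0.30) and GAT2 (1.62 ± 0.07) were also higher. GLN3, the other nitrogen activator gene of the list, was lower at -1.01 ± 0.18 (adjusted p = 4.92e-05). Of the 6 with both regions none had frame above promoter, 4 had it below and 2 did not pass. The call of GAT2 ended with dim probes kept (-0.42, adjusted p = 0.0661), and the difference of DAL80 turned with loess (0.17, adjusted p = 0.64). ECM23 gained a lower call in a 1000 bp window (-0.55, adjusted p = 0.00416). SRD1 and GLN3 had no used promoter probe. Around AHT1 the hexose transporter genes HXT1, HXT4 and HXT5 all had frame below promoter, by -1.18 ± 0.18, -2.25 ± 0.06 and -1.66 ± 0.24. HXT4 shares its promoter probe with AHT1, at 1.80 and 1.62, so that the same promoter value stood above the frame of one gene and below the frame of the other. YAP1 likewise shares its promoter probe with MIN4, so the choice of MIN4 partly fixed the YAP1 difference and nothing is read from its call. The call of that difference, 0.64 ± 0.21 (adjusted p = 0.00414), ended with normexp (adjusted p = 0.058) and with dim probes kept (adjusted p = 0.158).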

How the data were processed

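Per the file headers, Agilent Feature Extraction 8.5.1.1 gave the deposited intensity of each spot. The deposited log10 ratio, red over green per the file headers, was not used for results. Values in the deposited table equal the log2 of red over green processed intensity to within 4.9e-08, and its sign was turned for an alternative. Here log2 of green over red (Flag over Myc) was centred on each array's median of used probes (-0.46 before centring on both). Of 41282 nuclear probes, 3964 were dropped as dim (not well above background in every channel and array) and 2419 for an outlier flag. No probe was saturated, and the number of arrays limits the precision.

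The files give each gene's left end through listed distances. Frame lengths came from RefSeq's R64 gene table, which matched 5928 of 6578 listed frames, and 12 that the listing contradicted were left out (MDM32, next to SPP2, is one, so it has no value). That check covered forward-strand frames only, so no reverse-strand frame could be left out by it. No coordinate of R64 is printed.

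Tests used limma 3.58.1 in R 4.3.3: an intercept fit (lmFit), eBayes and p-values adjusted over all genes by Benjamini-Hochberg, called at 0.05, for the frame, the promoter and their difference, asking whether each lies off 0. limma gave all promoters 1 common spread, so their p-values are very small. The fit was tested on simulated data. The arrays alone allow no exact two-sided sign-flip p below 0.5.

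The 8 genes, the alternatives and the gene lists were chosen with earlier results of these data known. Named genes are the 8 genes, their nearest neighbours on each side and the 5 other genes with the largest difference. Also named are 26 partner, related or nearby genes in 6 lists from textbook knowledge. The listed paralog name of MIY2 is a synonym of YPL191C itself in the RefSeq table, so YGL082W was used. KAR4 is named for its rank between MIY2 and GAT4, and MHF1 as the gene next in rank after GAT4. Alternatives were normexp (offset 50), loess, scaling between arrays, no dim filter, the value table, whole probes, promoter windows of 250 and 1000 bp, leaving out probes shared with other genes, and each array alone.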

Additional observations from a re-analysis of the deposited data

How the results depend on the processing

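Only 2 arrays of 1 group stand behind every value, and several genes rest on 1 probe in a region. The difference of frame minus promoter was above 0 in all 88 alternative values of the 8 genes and above 1 in 87, from 0.91 to 3.96. Values from each array alone and from the value table repeat those that the choice used. The other alternatives reuse the same arrays, so nothing is read from these counts. Values could not be had for MIN4 and SPP2 in a 250 bp window, for MIN4 and ICS3 without frame probes upstream of another gene, and for MIN4, ICS3, AHT1 and ARG80 without shared promoter probes. The median frame ratio over all genes moved from -0.06 to -0.10 with normexp, -0.14 with dim probes kept and -0.16 without frame probes upstream of another gene. The promoter median moved from 0.99 to 0.85 with normexp, 0.84 with dim probes kept, 0.90 in a 250 bp window and 1.07 without shared promoter probes. Without shared promoter probes, where fewer genes could be tested, promoters called lower fell from 318 to 193 and genes with frame above promoter from 457 to 272. Signs turned with dim probes kept, by the added probes, for the promoters of MIN4 (0.22) and SPP2 (0.14). They turned with loess for the difference of CAR1 (-0.093) and for the promoter (-0.11) and difference (0.17) of DAL80, in a 1000 bp window for the ECM23 promoter (0.097), and without frame probes upstream of another gene for the difference of VLD1 (-0.33), and the cause was not tested. Of 737 values of 38 partner and neighbour genes, 27 lost their call, 12 gained one and 5 changed sign. With each array alone, which allows no test, the medians ranged from -0.08 to -0.05 in the frame, 0.95 to 1.06 in the promoter and -0.97 to -0.84 for the difference. No paired analysis was possible because the samples form 1 group.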
